A study of Mus musculus with 12 samples.

Results

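Genes of the PD-1 pathway and of the neighbouring T cell checkpoints were followed across tumours that differed in their history with anti-PD-1. The 10 genes were chosen by name: the receptor genes Pdcd1 (PD-1), Ctla4, Icos, Lag3, Havcr2 (TIM-3) and Tigit, the PD-1 ligand genes Cd274 (PD-L1) and Pdcd1lg2 (PD-L2), and the CD28 ligand genes Cd80 and Cd86. Of the 18193 genes named on the arrays, 9 of these 10 were found, with 15 probe sets in all. Tigit was not analysed here. All 9 genes passed the filter on dim genes and were among the 15493 tested, Pdcd1 through 4 of its 6 parental arrays alone.

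PD-1 is an inhibitory receptor that T cells display after activation, and its ligands PD-L1 and PD-L2 on tumour cells, macrophages and dendritic cells dampen signalling from the T cell receptor. CTLA-4 competes with the co-stimulatory receptor CD28 for CD80 and CD86 on antigen presenting cells, whereas ICOS, a relative of CD28, co-stimulates activated T cells. Interferon gamma released by T cells is a known inducer of PD-L1 through the kinases JAK1 and JAK2 and the factor IRF1.

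Tumours were grown under the skin of female 129sv/ev mice from the mouse lung adenocarcinoma line 344SQ, either the parental cells (titled Sen) or a derivative resistant to anti-PD-1 (titled Res). Mice carrying either kind of tumour were injected on days 4 and 7 with 10 mg/kg of control IgG or of anti-PD-1, and tumour RNA was prepared on day 11. Each of the 4 groups had 3 arrays, from groups of 5 mice, and the labels do not say which mice lie behind an array or whether RNA was pooled. The p-values therefore measure only the spread between these arrays, which may be technical, and precision is limited by the few arrays. The resistant tumours stand for 1 derived line, so that resistance and any other feature of that line cannot be told apart.

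Values are the deposited log2 expression levels of whole tumours, and a difference of 1 is a doubling. In such bulk RNA fewer cells of a type and less RNA per cell cannot be told apart. Levels are compared between arrays for 1 probe set at a time, never between genes. A gene is called where limma's adjusted p, over all 15493 genes, was under 0.05.

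Tissue content and RNA quality differed between arrays. On the first principal components (48.5% and 21.6% of the variance) parental IgG replicate 1 and parental anti-PD-1 replicate 3 stood apart. The mean level of 6 epithelial tumour cell markers was 10.75, 10.62, 10.26 and 10.29 in the groups parental IgG, parental anti-PD-1, resistant IgG and resistant anti-PD-1. That of 5 lung lineage markers was 5.54, 5.42, 4.87 and 4.89 in the same order. Among them the group means of Nkx2-1 (3.88 to 4.05) and Sftpc (4.36 to 4.73) lay below the median of all values of 4.81 in every group. The difference between Gapdh control probe sets, 3' end minus 5' end, was 0.26 ± 0.10 (SD, n = 6) in parental and 0.04 ± 0.05 (n = 6) in resistant arrays, without overlap. This RNA end difference moved with the lines in every comparison of them below, and its part in those results was not tested.

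**Figure D1:**
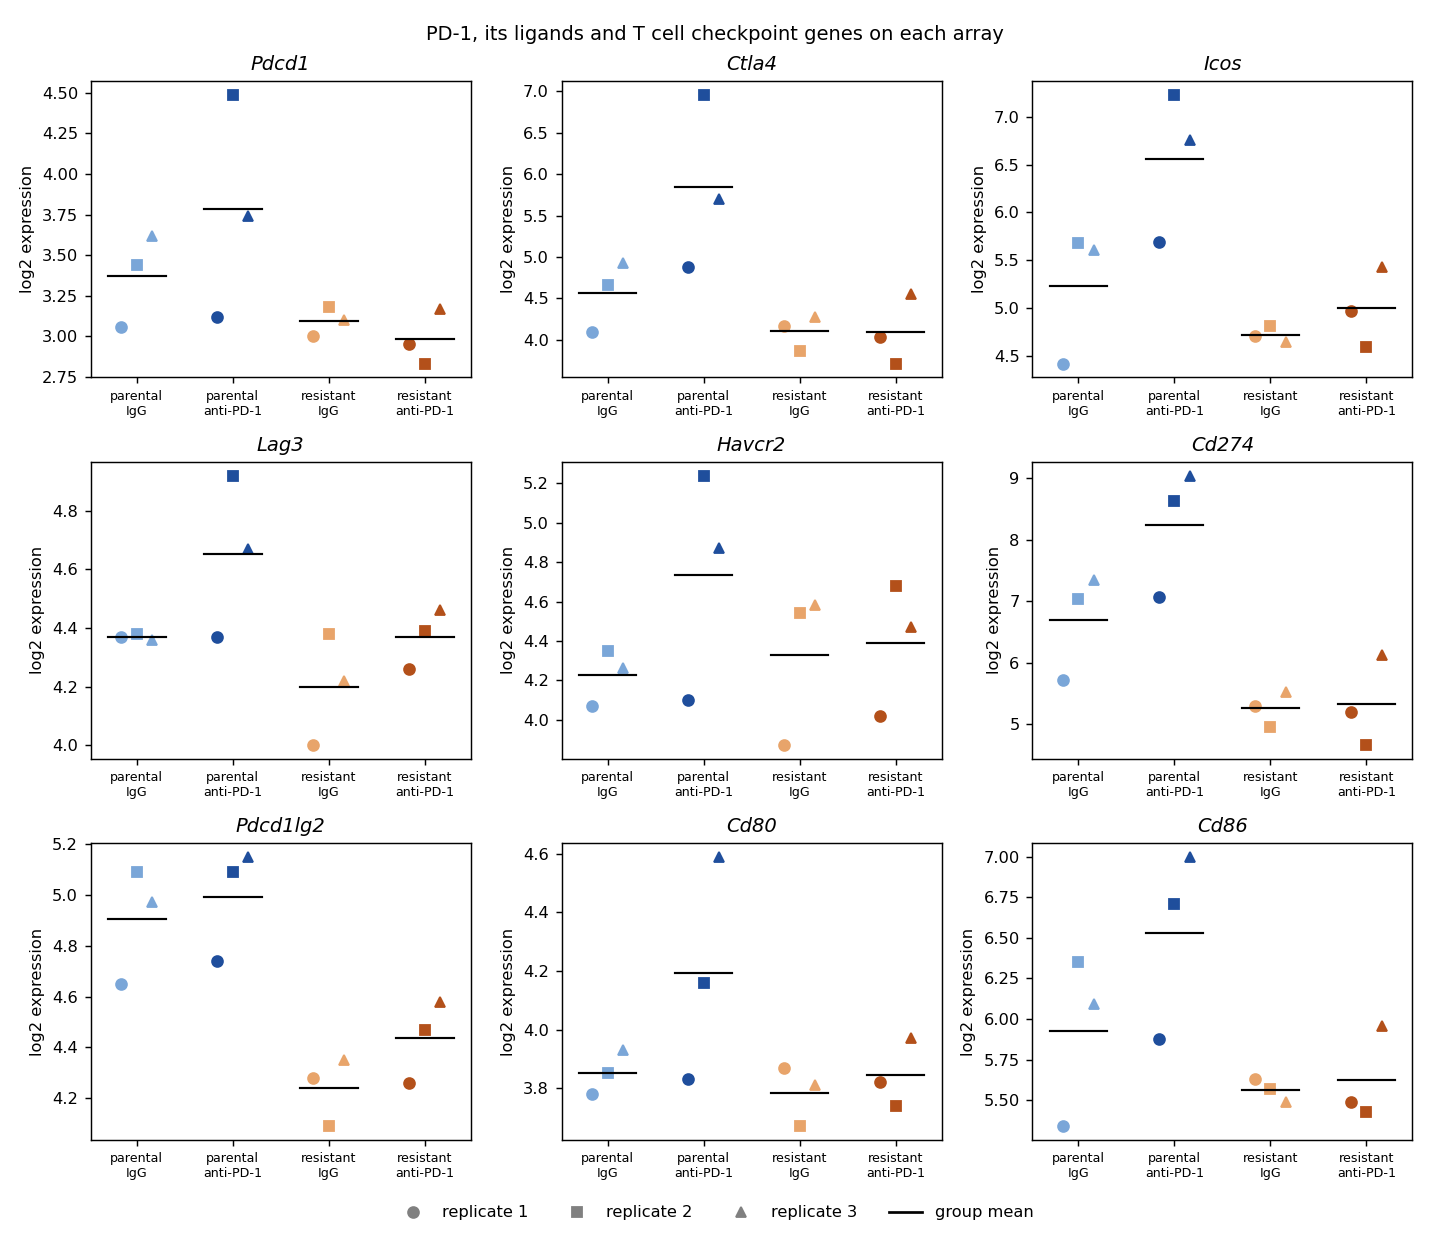
Deposited log2 level (vertical axis) of each of the 9 genes on every array, by group, with 1 point per array and a bar at the group mean. Cd274 spans 4.66 to 9.04, with its highest values in parental tumours given anti-PD-1, while Lag3 and Cd80 stay within about a unit.

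Of the 10 genes 7 had a promoter entry in the RefSeq table, and the 250 bases before the start are shown for the 3 of them that were lower in resistant tumours under anti-PD-1 and kept a place above the dim limit on every array. All 3 lie on the plus strand of build GRCm38.p6, Cd274 at chr19:29367188-29367437, Pdcd1lg2 at chr19:29410669-29410918 and Ctla4 at chr1:60908775-60909024. Capitals mark matches to the searched motifs on either strand.
Cd274: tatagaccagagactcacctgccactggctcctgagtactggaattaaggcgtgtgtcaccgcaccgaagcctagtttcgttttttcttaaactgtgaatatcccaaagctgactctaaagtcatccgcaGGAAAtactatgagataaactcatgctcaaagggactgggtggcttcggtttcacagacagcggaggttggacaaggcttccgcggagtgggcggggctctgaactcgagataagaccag
Pdcd1lg2: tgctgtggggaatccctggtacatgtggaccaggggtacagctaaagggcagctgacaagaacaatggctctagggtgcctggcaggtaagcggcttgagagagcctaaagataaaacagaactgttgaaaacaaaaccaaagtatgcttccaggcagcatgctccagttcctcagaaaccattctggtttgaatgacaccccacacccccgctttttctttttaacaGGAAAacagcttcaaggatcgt
Ctla4: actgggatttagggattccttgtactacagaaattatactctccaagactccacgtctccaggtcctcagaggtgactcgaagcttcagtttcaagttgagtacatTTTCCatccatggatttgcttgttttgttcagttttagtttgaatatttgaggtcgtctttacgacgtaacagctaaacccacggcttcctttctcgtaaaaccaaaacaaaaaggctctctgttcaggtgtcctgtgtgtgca
The motifs searched were the interferon gamma activated site TTCNNNGAA (in 7.02% of 32851 promoters of this length), an interferon regulatory factor element (2.98%), the AP-1 site TGANTCA (6.75%) and the NFAT core GGAAA (55.6%), whose letters can lie within the interferon regulatory factor element. Each of the 3 windows held 1 match, the NFAT core, at -120 to -116 for Cd274, at -22 to -18 for Pdcd1lg2 and, on the other strand, at -144 to -140 for Ctla4. None of the 7 windows held either interferon motif, which says only that these letters are not in these 250 bases. The AP-1 letters were found in 2 of the 7, Cd80 and Havcr2.

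Among the PD-1 ligands, Cd274 was the gene with the widest range. Its probe set 1419714_at read 5.71, 7.04 and 7.34 in parental tumours given IgG and 7.06, 8.62 and 9.04 in parental tumours given anti-PD-1. Resistant arrays read 5.30, 4.95 and 5.52 under IgG and 5.20, 4.66 and 6.12 under anti-PD-1. Every resistant array lay below every parental array that had received the same antibody, and the 2 resistant groups overlapped each other. Over all 12 arrays the lines met in a single place, since resistant anti-PD-1 replicate 3 (6.12) exceeded parental IgG replicate 1 (5.71). Group means were 6.70 ± 0.87, 8.24 ± 1.04, 5.26 ± 0.29 and 5.33 ± 0.74 (SD, n = 3 each), in the order parental IgG, parental anti-PD-1, resistant IgG and resistant anti-PD-1.

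Under anti-PD-1, Cd274 was 7.53-fold lower in resistant than in parental tumours (log2 difference -2.91, SE 0.55, 95% interval -4.13 to -1.70, limma adjusted p = 0.00255). This call held whichever of the 12 arrays was left out, with differences from -3.50 to -2.51. Under IgG the difference was -1.44 (SE 0.55, adjusted p = 0.0968), short of the threshold although the arrays did not overlap. It passed in only 2 of the 12 fits that left out an array, without parental IgG replicate 1 (-1.93, adjusted p = 0.0471) and without parental anti-PD-1 replicate 1 (-1.44, adjusted p = 0.0492). Over the 12 fits it ran from -1.93 to -1.12, with adjusted p up to 0.255. It also passed with array weights (-1.79, adjusted p = 0.0083) and with a block on the replicate number (-1.44, adjusted p = 0.0331). Without both parental arrays that stood apart it passed too (-1.93, adjusted p = 0.0252). It did not pass with each array centred on its median (adjusted p = 0.0929) or with the mean of all probe sets (0.0934). Nor did it pass with no filter on dim genes (0.103) or a stricter one (0.0883). Averaged over both antibodies Cd274 differed between the lines by -2.18 (SE 0.39, adjusted p = 0.00134).

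Pdcd1lg2, the gene of the second PD-1 ligand, had a smaller and steadier difference between the lines. Probe set 1450290_at read 4.65, 5.09 and 4.97 in parental IgG tumours and 4.74, 5.09 and 5.15 in parental anti-PD-1 tumours. In resistant tumours it read 4.28, 4.09 and 4.35 under IgG and 4.26, 4.47 and 4.58 under anti-PD-1. All 6 resistant arrays lay below all 6 parental arrays, which held for no other of the 9 genes, against 6.65% of all genes tested that were lower without overlap. The difference was -0.66 under IgG (SE 0.15, adjusted p = 0.0123), -0.56 under anti-PD-1 (SE 0.15, adjusted p = 0.0135) and -0.61 on average (SE 0.10, adjusted p = 0.000934). The first of these calls was lost without resistant IgG replicate 2 (-0.59, adjusted p = 0.0534) and the second without resistant anti-PD-1 replicate 1 (-0.47).

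Cd274 and Pdcd1lg2 are neighbours on mouse chromosome 19, and the tested genes around them did not all go the same way. Of the 5 tested neighbours on each side, 2 were lower and 3 higher in resistant tumours under anti-PD-1, with a median of 0.17 over the 10. Jak2, a kinase of the interferon gamma receptor in the same stretch, was at -0.28 under IgG (adjusted p = 0.0495) and -0.51 under anti-PD-1 (adjusted p = 0.00138). Its call under IgG held in only 2 of the 12 fits that left out an array, and its call under anti-PD-1 in all 12. Rcl1, Ermp1 and Ranbp6, the called neighbours besides Jak2 and Ric1, were higher there by 0.68, 0.64 and 1.11, and Ric1 was lower, at -0.44.

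**Figure D2:**
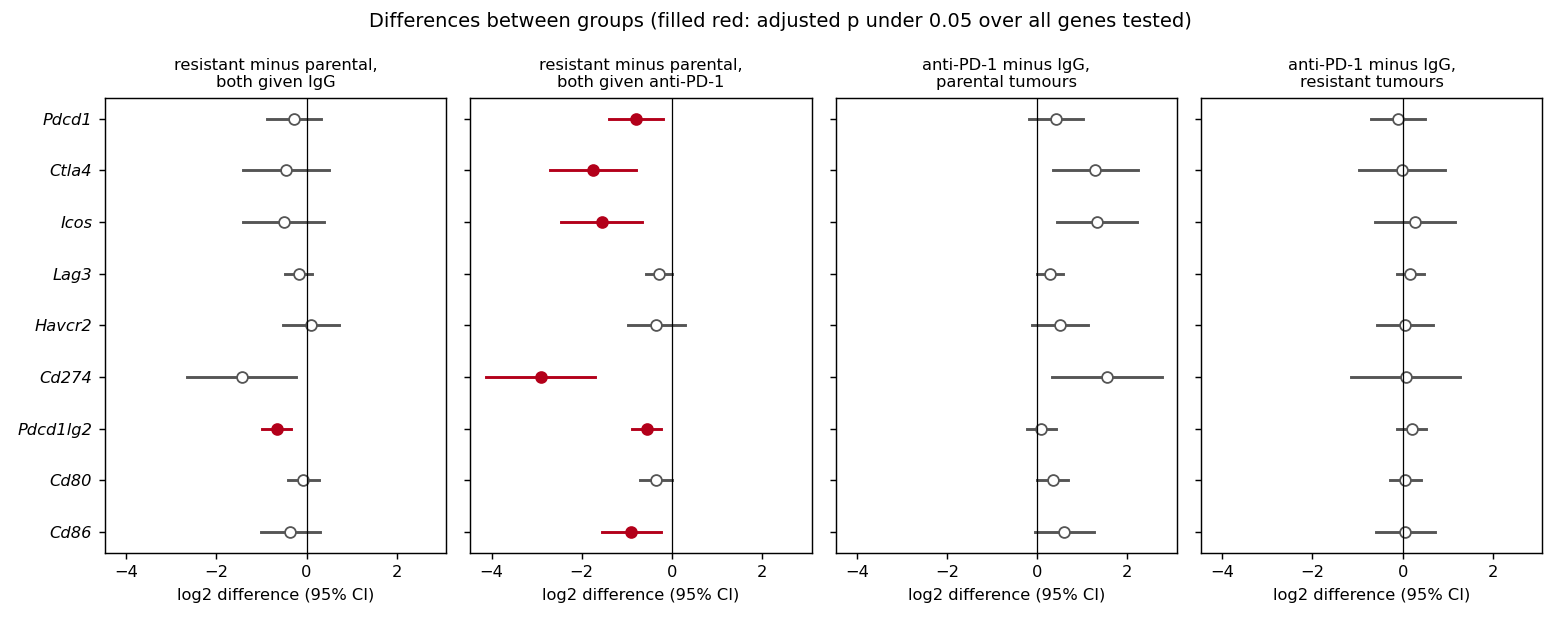
Log2 difference (horizontal axis) with its 95% interval for the 9 genes in 4 comparisons, filled where the adjusted p was under 0.05. Between the lines under anti-PD-1 all 9 points lie below 0 and 6 are filled, while the points for anti-PD-1 in resistant tumours lie between -0.11 and 0.27 with none filled.

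Pdcd1, the receptor that the antibody binds, was near the lower end of what the arrays measured. Its probe set 1449835_at read 3.06, 3.44 and 3.62 in parental IgG tumours and 3.12, 4.49 and 3.74 in parental anti-PD-1 tumours. In resistant tumours it read 3.00, 3.18 and 3.10 under IgG and 2.95, 2.83 and 3.17 under anti-PD-1. All 6 resistant arrays and both parental arrays numbered 1 lay below the dim limit of 3.32, so its differences between the lines rest on values near the floor of the arrays and have no reliable size. Pdcd1 differed by -0.80 between the lines under anti-PD-1 (SE 0.27, adjusted p = 0.0437) and by -0.28 under IgG (adjusted p = 0.507). The call under anti-PD-1 held in only 2 of the 12 fits that left out an array, those without replicate 1 of either parental group, with differences from -1.13 to -0.45.

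Ctla4, the gene of the inhibitory competitor of CD28, was highest in parental tumours given anti-PD-1. Its values on probe set 1419334_at were 4.09, 4.66 and 4.93 in parental IgG tumours and 4.88, 6.96 and 5.70 in parental anti-PD-1 tumours. They were 4.17, 3.87 and 4.28 in resistant IgG tumours and 4.04, 3.71 and 4.55 in resistant anti-PD-1 tumours. The lines did not overlap under anti-PD-1 and did overlap under IgG. Ctla4 was 3.36-fold lower in resistant tumours under anti-PD-1 (-1.75, SE 0.43, adjusted p = 0.0104), a call kept in all 12 fits without 1 array, at -2.23 to -1.19. Under IgG the lines differed by -0.45 (SE 0.43, adjusted p = 0.494).

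Icos, the co-stimulatory receptor gene next to Ctla4 on mouse chromosome 1, followed a like order of groups. Probe set 1436598_at read 4.42, 5.68 and 5.61 in parental IgG tumours and 5.69, 7.23 and 6.76 in parental anti-PD-1 tumours. Resistant values were 4.71, 4.82 and 4.65 under IgG and 4.97, 4.60 and 5.43 under anti-PD-1. The lines did not overlap under anti-PD-1, and parental IgG replicate 1 was the lowest array of all. The difference between the lines under anti-PD-1 was -1.56 (SE 0.40, adjusted p = 0.0128), 2.95-fold lower in resistant tumours, and the call was lost without resistant anti-PD-1 replicate 2 (-1.36, adjusted p = 0.0515). Both further Icos probe sets pointed the same way, at -0.72 (adjusted p = 0.0146 over all probe sets) for 1421930_at and -0.73 (0.0443) for 1421931_at. Under IgG Icos differed by -0.51 (adjusted p = 0.406). Of 10 tested neighbours of Ctla4 and Icos, 5 on each side, 2 were lower and 1 higher under anti-PD-1, with a median of 0.06.

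Of the CD28 and CTLA-4 ligands, Cd86 passed the test and Cd80 did not where both lines had received anti-PD-1, and the choice of probe set turned both calls. With the mean of all probe sets of a gene Cd80 was called (-0.27, adjusted p = 0.0486) and Cd86 was not (-0.66, adjusted p = 0.154). Cd86 on probe set 1420404_at read 5.34, 6.35 and 6.09 in parental IgG tumours, 5.88, 6.71 and 7.00 in parental anti-PD-1 tumours, 5.63, 5.57 and 5.49 in resistant IgG tumours, and 5.49, 5.43 and 5.96 in resistant anti-PD-1 tumours. The lines overlapped under both antibodies, under anti-PD-1 by a single pair (5.96 over 5.88). Cd86 differed by -0.90 (SE 0.30, adjusted p = 0.0376) under anti-PD-1 and by -0.36 (adjusted p = 0.424) under IgG. The call held in 5 of 12 fits without 1 array, those without any 1 of the 3 parental IgG arrays, parental anti-PD-1 replicate 1 or resistant anti-PD-1 replicate 3. Its second probe set 1449858_at gave -0.42 (adjusted p = 0.433 over all probe sets).

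Cd80 varied little, from 3.67 to 4.59 on its brightest probe set 1451950_a_at. Its 3 highest arrays were parental anti-PD-1 replicates 3 and 2 (4.59 and 4.16) and resistant anti-PD-1 replicate 3 (3.97). The lines differed by -0.35 under anti-PD-1 (SE 0.16, adjusted p = 0.11) and by -0.07 under IgG (adjusted p = 0.788). Without parental anti-PD-1 replicate 1 the first of these passed (-0.53, adjusted p = 0.0125). Of its 3 other probe sets, 1 (1427717_at) did not exceed the dim limit on any array, and 1454372_at gave -0.03 and 1432826_a_at -0.50 (adjusted p = 0.0526 over all probe sets) under anti-PD-1.

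Lag3 encodes an inhibitory receptor that binds MHC class II, and Havcr2 encodes TIM-3, which is expressed by exhausted T cells and by myeloid cells. Neither gene passed in any comparison over all 12 arrays without array weights or a block on the replicate number. Lag3 values were 4.37, 4.38 and 4.36 in parental IgG, 4.37, 4.92 and 4.67 in parental anti-PD-1, 4.00, 4.38 and 4.22 in resistant IgG, and 4.26, 4.39 and 4.46 in resistant anti-PD-1 tumours. Havcr2 values were 4.07, 4.35 and 4.26, then 4.10, 5.24 and 4.87, then 3.87, 4.54 and 4.58, and 4.02, 4.68 and 4.47 in the same order of groups. Both genes had their 2 highest arrays among parental tumours given anti-PD-1, and all groups overlapped for Havcr2. Between the lines under anti-PD-1 the differences were -0.28 for Lag3 (95% interval -0.58 to 0.01, adjusted p = 0.131) and -0.35 for Havcr2 (SE 0.28, adjusted p = 0.375). Lag3 passed without parental anti-PD-1 replicate 1, at -0.42 (adjusted p = 0.0243) under anti-PD-1 and -0.30 (adjusted p = 0.0168) averaged over antibodies. In that average it also passed with array weights (-0.31, adjusted p = 0.0172) and with the replicate block (-0.23, adjusted p = 0.0359). Havcr2 was the single gene of the 9 with a positive difference between the lines under IgG, at 0.10 (adjusted p = 0.83), and that sign turned with array weights (-0.18) and without resistant IgG replicate 3 (-0.02).

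More of the 9 genes passed the test between the lines under anti-PD-1 than under IgG, a contrast that the interaction test reported further on does not establish for any single gene. Under IgG 1 of the 9 was called, Pdcd1lg2, lower in resistant tumours, against 7.31% of all genes tested that were called lower. The lines' arrays were apart for 2 of 9 (Cd274 and Pdcd1lg2), against 15.2% of all genes lower without overlap. Under anti-PD-1 6 of 9 were called lower (Cd274, Ctla4, Icos, Cd86, Pdcd1 and Pdcd1lg2), against 11.9% of all genes, or 5 of 8 without the dim Pdcd1. Arrays did not overlap for 4 of 9 (Cd274, Pdcd1lg2, Ctla4 and Icos), against 15.8% of all genes. The median difference of the 8 genes without Pdcd1 was -0.41 under IgG and -0.73 under anti-PD-1, where that of all genes was 0.067 and 0.073. Averaged over both antibodies the same 6 genes were called lower, against 15% of all genes, or 5 of 8 without Pdcd1. In that average Cd86 was at -0.63 (adjusted p = 0.0336) and Pdcd1 at -0.54 (adjusted p = 0.0453), calls that held in 3 and 2 of the 12 fits without 1 array, while Cd274, Pdcd1lg2, Ctla4 and Icos held in all 12.

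Anti-PD-1 against IgG within parental tumours gave a positive difference for all 9 genes and no call (0 of 9 by limma, with 3 at an unadjusted p under 0.05), against 3.5% of all genes called in either direction. That share is 542 genes, and leaving out 1 array gave 9 (without parental IgG replicate 3) to 712 (without parental anti-PD-1 replicate 1). The differences were 1.54 for Cd274 (95% interval 0.33 to 2.76, adjusted p = 0.139), 1.32 for Icos (SE 0.40, adjusted p = 0.093) and 1.29 for Ctla4 (SE 0.43, adjusted p = 0.12). Those of the other 6 ran from 0.09 for Pdcd1lg2 to 0.60 for Cd86. Icos was the 1 gene whose arrays did not overlap, and only just, with a lowest treated value of 5.69 against a highest IgG value of 5.68, where 9.12% of all genes were higher without overlap. Without parental anti-PD-1 replicate 1, the lowest treated array for all 9 genes, Cd274 (2.13), Ctla4 (1.77) and Icos (1.76) were called. Parental IgG replicate 1 was in turn the lowest of its group for 8 of the 9.

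**Figure D3:**
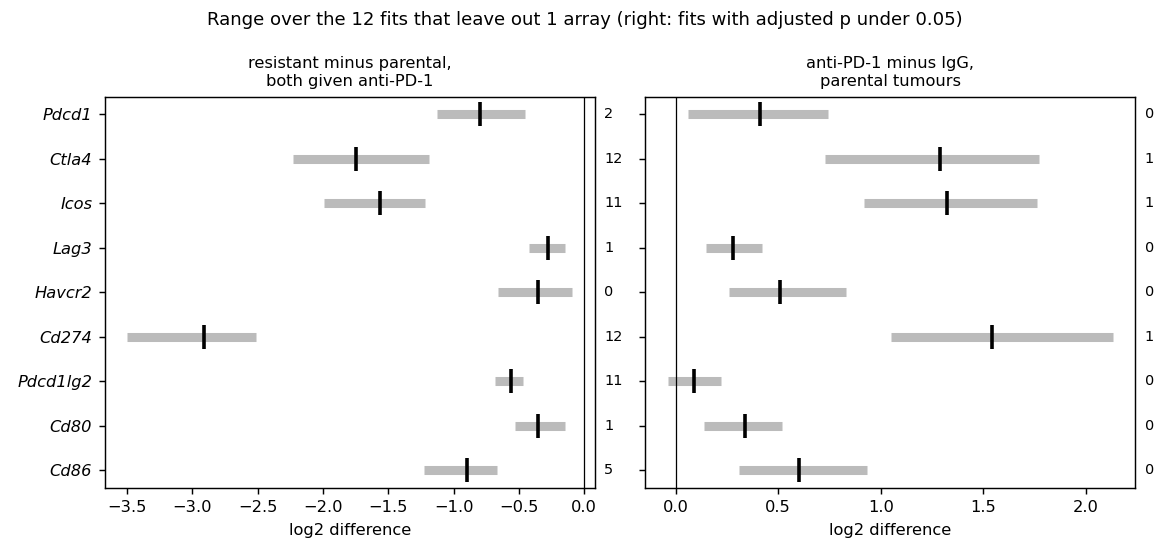
Log2 difference (horizontal axis) of the 9 genes for the lines under anti-PD-1 (left) and for the antibody in parental tumours (right). Black ticks give the value over all 12 arrays, grey bars the range of 12 fits that each left out 1 array, and the numbers at the right the fits with an adjusted p under 0.05. The bar of Cd274 on the left stays between -3.50 and -2.51, while Cd274 for anti-PD-1 in parental tumours runs from 1.05 to 2.13.

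In resistant tumours the same contrast left the genes within a narrow band. No gene was called (0 of 9 by limma, none at an unadjusted p under 0.05), against 0% of all genes, of which 738 had an unadjusted p under 0.05. The differences ran from -0.11 for Pdcd1 to 0.27 for Icos, with a median of 0.06. The interval for Cd274, -1.14 to 1.28 around 0.07, includes a doubling in either direction, so these arrays cannot show that it did not change. Resistant anti-PD-1 replicate 3 was the highest of its group for 8 of the 9 genes.

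Whether the antibody's effect differed between the lines was tested as an interaction, and 0 of 9 genes passed by limma, none at an unadjusted p under 0.05. Of all genes 0% passed, and 2713 had an unadjusted p under 0.05. The interaction (effect in resistant minus effect in parental tumours) was -1.47 for Cd274 (95% interval -3.19 to 0.24, adjusted p = 0.346), -1.29 for Ctla4 (-2.64 to 0.05, adjusted p = 0.297) and -1.05 for Icos (-2.30 to 0.20, adjusted p = 0.354). A rise of these genes in parental tumours alone was therefore not shown. Averaged over the lines, anti-PD-1 against IgG gave a call for none of the 9 (0 called by limma, 2 at an unadjusted p under 0.05, against 0% of all genes and 1806 at an unadjusted p under 0.05), with Cd274 at 0.81 (adjusted p = 0.451) and Icos at 0.80 (adjusted p = 0.308).

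T cell markers, like Cd274, Ctla4 and Icos, had their highest group mean in parental tumours that received the antibody. The mean of 10 tested T cell markers was 4.60 ± 0.39 (range 4.16 to 4.90) in parental IgG, 4.91 ± 0.48 (4.38 to 5.34) in parental anti-PD-1, 4.21 ± 0.05 (4.16 to 4.27) in resistant IgG and 4.22 ± 0.18 (4.10 to 4.42) in resistant anti-PD-1 tumours. No T cell marker was dim on all arrays, but Cd8b1 read 2.54 to 2.97 in resistant tumours, below the dim limit of 3.32 on every array. It passed the filter through parental arrays alone. Cd5 read 2.85 to 3.52 in resistant tumours. The list mean and the signs of these markers between the lines therefore rest partly on values near the floor. Under anti-PD-1 all 10 markers were negative between the lines and 2 were called, against 11.9% of all genes called lower, the CD3 chain genes Cd3d at -1.17 (adjusted p = 0.0488) and Cd3g at -1.67 (adjusted p = 0.0418), calls that held in 3 and 4 of the 12 fits without 1 array. Of the 40 companion genes from all lists that were called between the lines under anti-PD-1, 18 were called in all 12 such fits. Cd8a was at -0.63 (adjusted p = 0.144), Cd4 at -0.28 (0.0651), Cd3e at -0.29 (0.059) and Foxp3, the factor of regulatory T cells, at -0.02 (0.888). Ptprc, which encodes CD45 of all leukocytes, was lower by 1.35 on the log2 scale (adjusted p = 0.0241). Ptprc kept this call in 8 of the 12 fits without 1 array, and was at -1.06 (adjusted p = 0.0842) without parental anti-PD-1 replicate 3. In the order used above its arrays read 7.73, 8.56 and 8.80, then 8.25, 9.39 and 9.68, then 7.84, 7.59 and 8.08, and 7.69, 7.22 and 8.37. The low parental replicates 1 and the high resistant anti-PD-1 replicate 3 of the checkpoint genes were thus also low and high for Ptprc within their groups.

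Set against the mean of the 10 T cell markers on the same array, the receptors gave different values. Ctla4 minus that mean was -0.07, -0.06 and 0.03 in parental IgG tumours and 0.50, 1.62 and 0.70 in parental anti-PD-1 tumours, without overlap, a difference of 0.98 in means. Icos minus that mean went from 0.26, 0.96 and 0.71 to 1.31, 1.89 and 1.76, also without overlap, a difference of 1.01. For Pdcd1, Lag3 and Havcr2 the corresponding differences were 0.10, -0.03 and 0.20, with overlapping arrays. Between the lines under anti-PD-1 the same measure was -1.06 for Ctla4 and -0.88 for Icos, but -0.12 for Pdcd1, 0.40 for Lag3 and 0.34 for Havcr2. The value of Pdcd1 rests on levels below the dim limit on all 6 resistant arrays, as does the part of Cd8b1 in the mean of 10 markers. These values are a description without a test, and the mean of 10 markers does not measure a number of cells.

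**Figure D4:**
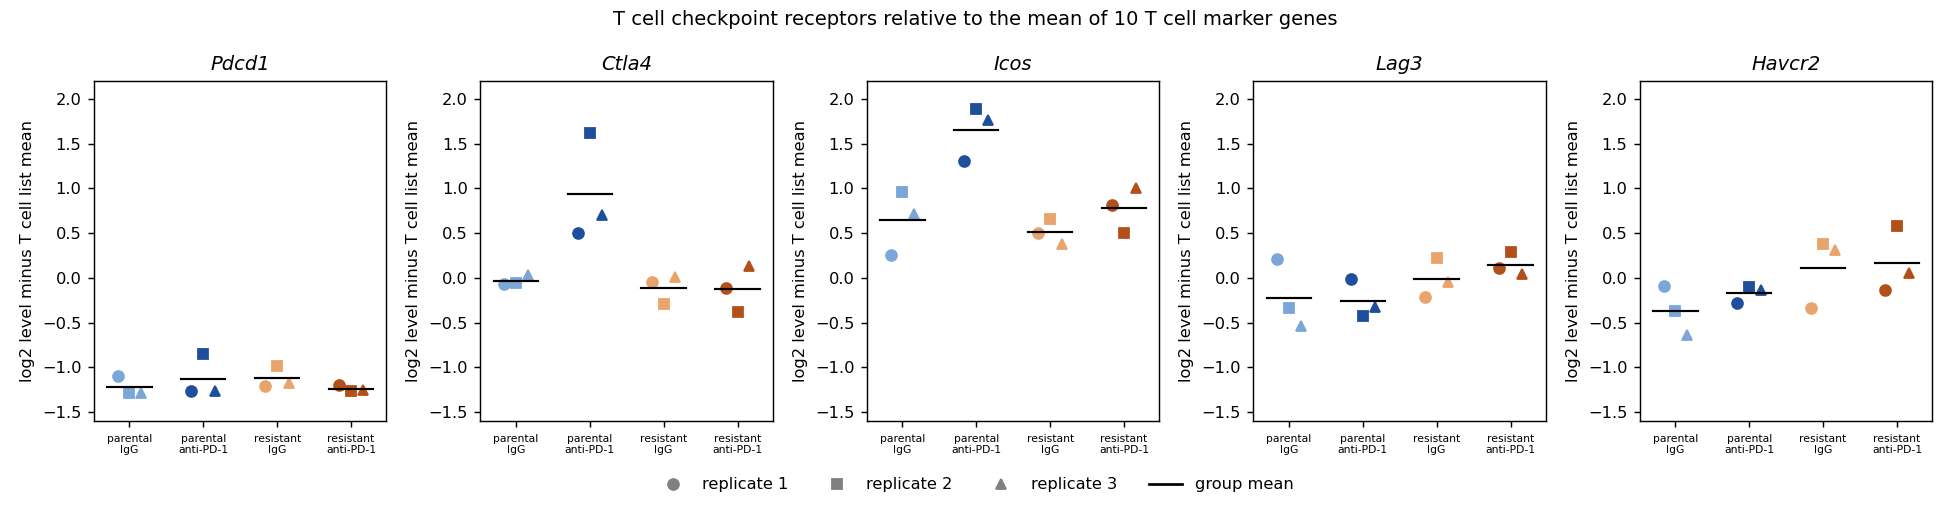
Log2 level of the receptor genes minus the mean of 10 T cell markers on the same array (vertical axis), by group, 1 point per array. Ctla4 and Icos are higher on every parental anti-PD-1 array than on every parental IgG array, and Pdcd1, Lag3 and Havcr2 overlap.

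A few myeloid markers were called as well in tumours given anti-PD-1, where 11.9% of all genes were called lower in the resistant line. Between the lines 2 of 7 macrophage and monocyte markers were lower, Csf1r at -1.05 (adjusted p = 0.0172) and Itgam at -0.66 (0.0275), as were 2 of 6 dendritic cell markers, Itgax at -1.44 (0.00296) and Ccr7 at -0.91 (0.0147). Itgax was also lower under IgG, at -1.07 (0.0264), the 1 call among 6 dendritic cell markers, where 7.31% of all genes were called lower. The other 5 dendritic cell markers were positive there. The macrophage marker Mrc1 was higher under IgG, at 0.65 (0.0316), the 1 call among 7, where 1384 of the 15493 genes were called higher. The IgG calls of Itgax and Mrc1 held in 8 and 7 of the 12 fits without 1 array. The mean of the macrophage list ranged from 8.05 to 8.98 in parental and from 7.91 to 8.26 in resistant anti-PD-1 tumours. That of the dendritic cell list ranged from 4.53 to 5.00 and from 4.24 to 4.37, without overlap, and 1 of its markers was dim on all arrays. In tumours given IgG the dendritic cell means were 4.49 ± 0.15 and 4.49 ± 0.03. The mean of 8 skeletal muscle markers ranged from 10.21 to 12.01 in parental and from 6.60 to 10.00 in resistant anti-PD-1 tumours, without overlap, with 0 of 8 called by limma and a median difference of -2.41. The part of T cell, myeloid and muscle content in the differences of the checkpoint genes was not tested.

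Genes of the interferon gamma chain that induces PD-L1 were lower in resistant tumours given anti-PD-1. Of 15 tested members 11 were called lower, against 11.9% of all genes, and 1 higher, where 3343 of the 15493 genes were called higher. The median was -1.66 beside 0.073 for all genes. Ifng itself was at -1.66 (adjusted p = 0.02), Irf1 at -1.96 (0.0132), and Irf8, a factor of the same family, at -1.61 (0.02), calls that held in 9, 11 and 8 of the 12 fits without 1 array. Ifng read 2.86, 3.08 and 3.17 in resistant IgG tumours and 3.49, 3.30 and 3.79 in resistant anti-PD-1 tumours. These values lie near or below the dim limit of 3.32, so the differences of Ifng between the lines have no reliable size. The 1 member called higher was the kinase gene Jak1, by 0.46 (adjusted p = 0.0101) and by 0.68 under IgG (adjusted p = 0.00321). Under IgG 1 member was called lower, Jak2, in only 2 of the 12 fits without 1 array, and 1 was called higher. Of all 15493 genes 7.31% were called lower and 1384 higher there, so these counts do not set the list apart. The median of the 15 members under IgG was -1.20, with Ifng at -1.20 (adjusted p = 0.104) and Irf1 at -1.39 (0.0832). In parental tumours anti-PD-1 gave positive differences for all 15 with none called (0 by limma), Ifng and Irf1 both at 0.95. The mean of the 15 genes was 8.34 ± 0.82, 9.05 ± 0.55, 7.07 ± 0.67 and 7.57 ± 0.70 in the 4 groups, and like Cd274 it was lowest of its group on parental IgG replicate 1 (7.39) and highest of its group on resistant anti-PD-1 replicate 3 (8.38).

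Among other known inducers and stabilisers of PD-L1, 3 of 9 were called higher with anti-PD-1 in parental tumours, against 3.5% of all genes called in either direction. They were the cytokine gene Il6, by 2.29, and the factor genes Stat3, by 0.56, and Rela, by 0.37 (adjusted p = 0.034 for each). Each of these 3 calls held in 4 of the 12 fits without 1 array. Under anti-PD-1 4 of the 9 were called lower in resistant than in parental tumours, against 11.9% of all genes. These 3 were among them, at -2.17, -0.66 and -0.45. Cmtm4, which protects PD-L1 from breakdown in human cells, was higher by 0.49 (adjusted p = 0.00809). Under IgG none of the 9 was called between the lines (0 by limma).

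Some partners of the checkpoint receptors were called between the lines. The ligands of TIGIT, Pvr and Nectin2, were lower in resistant tumours under IgG, at -0.68 (adjusted p = 0.00546) and -0.56 (0.0242), and under anti-PD-1, at -1.23 (SE 0.12, adjusted p = 0.000122) and -0.62 (0.00776). Lgals9, which encodes the TIM-3 ligand galectin-9, was higher under anti-PD-1 by 0.75 (adjusted p = 0.00486) and at 0.23 under IgG (0.35). Cd28, the activating receptor for CD80 and CD86, was at -0.54 under anti-PD-1 (0.0196) and -0.12 under IgG (0.605), and Icosl, the ligand gene of ICOS, at -0.27 (0.262) and 0.02 (0.951). The call of Cd28 held in 8 of the 12 fits without 1 array. Cd28 read 3.03, 2.99 and 3.21 in resistant anti-PD-1 tumours, below the dim limit of 3.32, so its difference there has no reliable size. In all, 2 of 9 partners were called lower under IgG, against 7.31% of all genes. Between the lines given anti-PD-1, 3 of 9 were called lower, against 11.9%, and 1 higher, where 3343 of the 15493 genes were called higher. Counts as small as these cannot set the list apart from all genes.

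The other checkpoint lists held 2 or 3 genes called lower each, counts too small to set apart from the 11.9% of all genes. Of 10 other co-inhibitory genes 2 were lower in resistant tumours under anti-PD-1, the receptor gene Btla at -0.74 (adjusted p = 0.0479, called in 2 of the 12 fits without 1 array) and Nt5e, whose enzyme CD73 makes adenosine, at -0.73 (0.00546). Nt5e was at 0.65 for anti-PD-1 in parental tumours (adjusted p = 0.0505). Of 7 other co-stimulatory genes 2 were lower, Tnfrsf4 (OX40) at -0.45 (0.00766) and Tnfrsf9 (4-1BB) at -0.43 (0.0175). Of 8 transcription factor genes of effector and exhausted T cells 3 were lower, Prdm1 at -1.72 (0.00398), Tbx21 at -1.05 (0.0201) and Ikzf2 at -0.75 (0.00263). None of these 3 lists had a call under IgG or for anti-PD-1 in parental tumours (0 by limma in each).

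**Figure D5:**
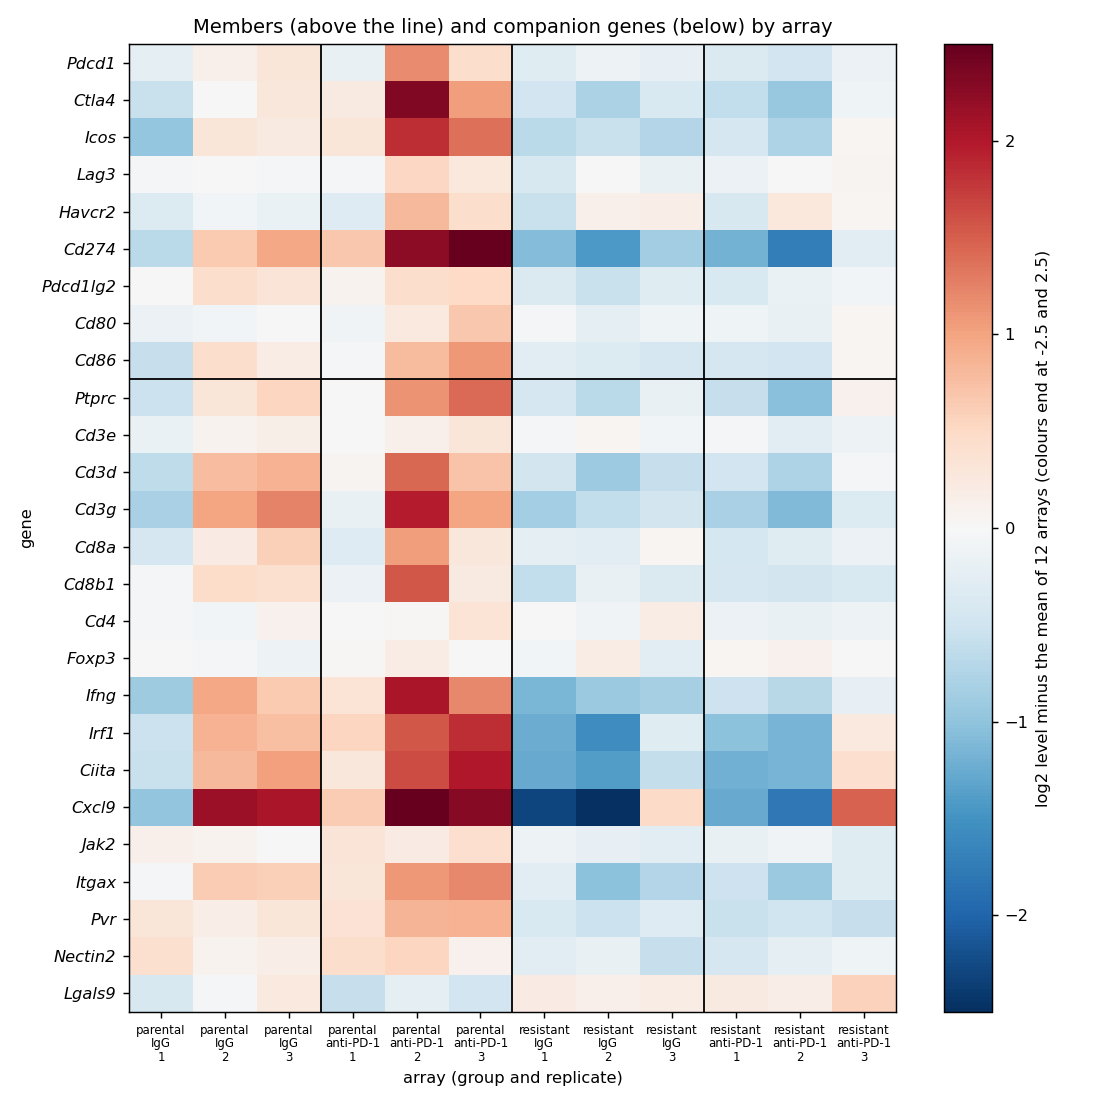
Log2 level minus the gene's mean over the 12 arrays (colour), with the 9 genes above the line and companion genes below it. Arrays are in columns by group. Parental anti-PD-1 replicates 2 and 3 are above the mean for each of the 9 genes, though not for every companion gene. Within each parental group replicate 1 is the lowest array for 8 or 9 of the 9 genes.

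Levels of the 9 genes were correlated from array to array. Over the 36 pairs Pearson's r across the 12 arrays ran from 0.42 to 0.95 with a median of 0.81, and for deviations from the group means from 0.25 to 0.95 with a median of 0.67. All pairs share the same arrays and the same 4 groups, so that these are descriptions without a test. The tested genes most like Cd274 over the 12 arrays were Cybb (r = 0.987), Neurl3 (0.983) and Plek (0.980). Those most like Pdcd1lg2 were Wars (0.966), Cd74 (0.960) and Bcl11b (0.959). For Ctla4 they were Tbx21 (0.957), Gimap3 (0.951) and Icos (0.951), and for Icos Lat (0.989), Il2rb (0.976) and Cpeb4 (0.969). Pdcd1 was closest to Ctla4 (0.950), Cd8b1 (0.948) and Gimap3 (0.946), and Cd86 to Il7r (0.980), Tnfsf10 (0.974) and H2-M3 (0.969). Cd80 was closest to Rasa4 (0.965), Zup1 (0.952) and Acod1 (0.952). Lag3 and Havcr2 had lower values, with Gimap3 (0.903), Fst (0.867) and Prex1 (0.859) for Lag3 and Slc7a11 (0.863), Akap2 (0.852) and Lag3 (0.838) for Havcr2.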

How the data were processed

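Tumour RNA, extracted with Triazol, was made into biotin cRNA for Affymetrix mouse genome arrays, per the labels' protocols. Log2 expression levels of 45101 probe sets on 12 arrays were deposited by the authors as 1 table; the log2 scale was read from the values, and the background correction, normalization and summarization are not given in the sources used here. After 64 controls were set aside, the 34945 probe sets with 1 gene symbol were kept (932 had several, 9160 none), and each gene was represented by its probe set of highest mean. Genes with at least 3 arrays above the 25th percentile of all values (3.32) were tested, 15493 in all.

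Differences were fitted with limma (3.58.1, under R 4.3.3), using 7 contrasts of the group means, 8 residual and 2.98 prior degrees of freedom, and two-sided p-values adjusted by Benjamini-Hochberg over all genes within a contrast. The fit was tested on simulated data. Plots were made in Python 3.11.15 by matplotlib 3.10.9. Alternatives were no and a stricter dim filter, the mean of all probe sets, every probe set tested, median centring, array weights, a replicate block, both parental arrays that stand apart left out, and each array left out (for list genes, an alternative chosen after seeing the data).

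The 10 genes and the 20 gene lists (147 entries, 125 tested) were chosen with earlier results of these data known. Beside the 10 genes, up to 4 called genes with the smallest p in a list and a fixed set of pathway genes were named, as were the 3 genes most correlated with each. Neighbours on the chromosomes were named after their values were seen. Tigit and some list genes were not analysed here. Promoters came from a RefSeq table of GRCm38.p6, which also gave gene order; 34741 of the probe sets matched it by gene number.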

Additional observations from a re-analysis of the deposited data

How the results depend on the processing

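Under IgG the number of the 9 genes called between the lines was 1, and 2 with array weights, with the replicate block and without both parental arrays that stand apart, in each case Cd274 beside Pdcd1lg2 (Cd274 at -1.79, -1.44 and -1.93, adjusted p = 0.0083, 0.0331 and 0.0252). Leaving out 1 array gave 0 to 2. For anti-PD-1 in parental tumours that range was 0 to 3, and between the lines under anti-PD-1 it was 3 to 8, with 3 called without resistant anti-PD-1 replicate 1 or 2. Averaged over antibodies it was 4 to 8. Under anti-PD-1 the calls of Pdcd1 (-0.69, adjusted p = 0.0621, median centring) and Cd86 (-0.66, adjusted p = 0.154, mean of probe sets) ended, and both ended without the arrays that stand apart (-0.82 and -0.67).

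Signs turned only for differences that were not called. Cd80 was at 0.05 between the lines under IgG and at -0.04 for anti-PD-1 in resistant tumours with the mean of its probe sets, Havcr2 at -0.18 between the lines under IgG with array weights, Pdcd1lg2 at -0.12 for anti-PD-1 in parental tumours without both arrays that stand apart, and Ctla4 at 0.02 in resistant tumours with median centring. Without 1 array the ranges were -0.02 to 0.33 for Havcr2 between the lines under IgG and -0.04 to 0.22 for Pdcd1lg2 in parental tumours. For anti-PD-1 in resistant tumours they were -0.33 to 0.40 for Cd274, -0.23 to 0.19 for Ctla4, -0.17 to 0.24 for Havcr2, 0.00 to 0.11 for Cd80 and -0.10 to 0.16 for Cd86. In the interaction they were -0.02 to 0.23 for Pdcd1lg2 and -0.25 to 0.02 for Lag3, for the lines averaged over antibodies -0.28 to 0.00 for Havcr2, and for anti-PD-1 averaged over lines -0.03 to 0.32 for Pdcd1. The causes were not tested.

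Same-numbered arrays of different groups deviated together in 14 of 18 pairs (correlation over 0.1, range -0.21 to 0.64), and in 27 of 36 cases an array was closest to its own number in another group. Since 4 pairs fell short, the numbers were not taken as pairs. Between the resistant groups all 3 pairs passed, and the replicate block called 0 of 9 there too. Beside Cd274 under IgG the block added Lag3 averaged over antibodies (-0.23, adjusted p = 0.0359). Over all genes the calls between the lines under IgG went from 2517 to 5152 with array weights, those for anti-PD-1 in parental tumours from 542 to 918 with array weights and to 100 without both arrays that stand apart, and the interaction from 0 to 121 with array weights. Leaving out 1 array gave 1268 to 3478 calls between the lines under IgG and 9 to 712 for the antibody within the parental line. Of the list genes called, 3 of 12 between the lines under IgG, 18 of 40 between them under anti-PD-1 and 0 of 3 within parental tumours were called in all 12 fits without 1 array. Tested per probe set the counts were 4871, 879 and, between the lines under anti-PD-1, 9870 against 5186 genes, with more features tested. The number of arrays and the dim signal of Pdcd1 limit these results.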

Other observations

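Other cell type lists gave the following values between the lines. In resistant tumours given IgG, Adipoq, a hormone gene of fat cells, was at 3.99 (limma adjusted p = 0.0343), and at 2.77 (adjusted p = 0.111) without resistant IgG replicate 2, its highest array. Emcn, a gene of capillary and venous endothelium, was at 1.59 (adjusted p = 0.0161), and at 1.35 (adjusted p = 0.0507) without resistant IgG replicate 3. They were the 1 call each among 4 adipocyte and 4 endothelial markers, with list medians of 1.24 and 0.82. Under anti-PD-1 neither list had a call (0 by limma), and the medians were -0.18 and -0.37. All 4 fibroblast markers were positive under IgG (median 0.81) and 3 of 4 negative under anti-PD-1 (median -0.45), with none called in either (0 by limma).

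Among lymphoid lists, the 4 regulatory T cell markers had medians of 0.10 under IgG and -0.11 under anti-PD-1, where the 1 call was Ikzf2. The 3 tested NK cell markers had medians of 0.21 and 0.09, and the 4 B cell markers 0.24 and 0.08, with no call (0 by limma). The 1 tested red blood cell marker was at 0.29 and -0.44, not called. The epithelial list had 2 of 6 genes lower under IgG, against 7.31% of all genes. Under anti-PD-1 it had 2 lower, against 11.9%, and 1 higher, where 3343 of the 15493 genes were called higher. The lung lineage list had 2 of 5 lower in each, the surfactant genes Sftpb (-1.67 and -1.57) and Sftpd (-1.73 and -1.14). Under IgG the epithelial calls, Epcam and Krt18, held in 6 and 9 of the 12 fits without 1 array. There the calls of Sftpb and Sftpd held in 7 and 12.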
